A study of Rattus norvegicus with 7 samples.

Results

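rno-miR-451, rno-miR-144, rno-miR-126 and rno-miR-126* (below without the species prefix) are 4 of the 677 rat miRNAs on the array, taken by their exact array names. The first pair is known from red blood cells and the second pair from the endothelium that lines blood vessels, so their levels in whole liver RNA were read as signs of blood and vessel content. All 4 were detected on all 7 arrays, and all 4 were among the 175 miRNAs that were detected widely enough to be tested. Each array held liver RNA of 1 adult male Sprague-Dawley rat. In the PFOS group (4 arrays), rats ate a diet with 50 mg/kg of potassium perfluorooctanesulfonate, a persistent fluorinated surfactant, for 28 days. In the control group (3 arrays) they ate the control diet for the same time, and the submitters dropped another control array that failed their quality checks. All rats were killed by bleeding under isoflurane. Whether the vessels of the liver were rinsed is not given in the sources used here.

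miR-451 and miR-144 are cut from a single primary transcript that is switched on by GATA1 as red cells mature. The miR-451 hairpin is unusual in that Argonaute 2 slices it and Dicer is not needed. miR-451 stays in circulating red cells, which makes it a known marker of blood and of haemolysis in tissue and plasma RNA. miR-126 and miR-126* are the opposite arms of a single hairpin inside an intron of Egfl7, a gene whose protein endothelial cells secrete into vessel walls. miR-126 represses Spred1 and Pik3r2 and so supports signalling downstream of VEGF, and miR-126* is known to act on Dlk1 in endothelial repair. Liver holds many such cells in its sinusoids and larger vessels.

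The 4 mature sequences are shown to compare their seeds. All 4 were matched to RefSeq (GRCr8), where the array's miR-126 is named rno-miR-126a-3p and miR-126* is named rno-miR-126a-5p. Capitals mark the seed, bases 2 to 8 from the 5′ end.
miR-451: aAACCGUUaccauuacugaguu
miR-144: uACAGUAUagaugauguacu
miR-126: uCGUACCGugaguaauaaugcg
miR-126*: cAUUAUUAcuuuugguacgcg
No seed was shared among the 4, and no other mature rat miRNA in the RefSeq table carried any of these seeds. Full sequences were not compared, so whether the probes read the 4 miRNAs apart from others was not tested.

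The hairpins of the erythroid pair show how differently the partners are built. Capitals mark the mature miRNA.
miR-451 hairpin: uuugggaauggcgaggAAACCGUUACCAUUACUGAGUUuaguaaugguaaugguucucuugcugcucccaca
miR-144 hairpin: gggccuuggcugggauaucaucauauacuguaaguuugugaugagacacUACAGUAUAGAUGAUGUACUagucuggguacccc
In the 72-base miR-451 hairpin the mature miRNA ran from base 17 to base 38, and 5 bases separated it from the annotated opposite arm. In the 83-base miR-144 hairpin the mature miRNA ran from base 50 to base 69 and 14 bases separated the arms. In GRCr8 the hairpins lay 89 bases apart on chromosome 10, outside any annotated gene. The miR-126 hairpin lay on chromosome 3 inside Egfl7. The annotation printed on the array belongs to an older assembly, so coordinates are not printed.

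The other products of these hairpins were also on the array, and none was detected on any of the 7 arrays. miR-144*, the opposite arm of miR-144, gave an unscaled signal of -0.30 to 9.41, and miR-451* gave 0.75 to 4.47. miR-3567, which RefSeq names rno-miR-126b, is read from the opposite strand of the miR-126 hairpin. It is a run of letters complementary to miR-126* over 17 bases, marked here in capitals.
miR-126*: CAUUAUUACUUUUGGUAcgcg
miR-3567: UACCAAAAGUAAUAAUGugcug
Its unscaled signal was below 0 on every array (-10.3 to -3.25), so of the products of this stretch the array detected the sense one and not the antisense one.

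The tissue label was checked with miR-122, the defining miRNA of hepatocytes, which was detected on all 7 arrays with group means of 58654 in PFOS and 58485 in control livers. The 6 listed miRNAs of muscle, heart and brain were detected on no array. The arrays came from 1 slide with 1 scan time, and no spot of the 4 miRNAs was saturated. The PFOS arrays were brighter before scaling: the median unscaled signal of the miRNAs detected on all arrays was 226 to 326 on them and 133 to 176 on control arrays, a ratio of 1.73 (exact permutation p = 0.0286, two-sided, the minimum with 35 splits). The labelling spike-in differed the same way (2338 to 3751 against 1179 to 1277, exact permutation p = 0.0286). Before scaling, the 4 miRNAs were 1.61-fold (miR-451), 1.46-fold (miR-144), 1.73-fold (miR-126) and 1.65-fold (miR-126*) brighter on PFOS arrays. The part of this brightness in the scaled results was not tested. Below, normalised signal means the background-subtracted probe signal, summed over a miRNA's probes, scaled to a common 75th percentile and adjusted by cyclic loess. It is a relative scale for 1 miRNA between arrays and does not rank different miRNAs.

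PFOS livers and control livers held similar normalised signals of both erythroid miRNAs, and the rats differed from each other within each group. For miR-451 the normalised signal was 729, 803 and 441 in control replicates 1 to 3, and 936, 375, 944 and 472 in PFOS replicates 1 to 4. The highest and the lowest of the 7 livers were both PFOS livers, 2.52-fold apart, and the control values lay between them. The group means (geometric, here and below) were 628 for PFOS and 637 for control, with n of 4 and 3. The log2 fold change was -0.02 (SE 0.41, limma adjusted p = 0.9997 after Benjamini-Hochberg over the 175 tested miRNAs). The 95% confidence interval ran from 2.002-fold lower to 1.95-fold higher in PFOS livers, so changes within that range are compatible with these arrays. The interval does not give the smallest change that could pass the adjusted threshold.

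miR-144, the partner from the same transcript, gave 139.9, 127 and 76.7 in control livers and 123, 63.7, 135 and 85.3 in PFOS livers. The highest liver was control replicate 1 and the lowest PFOS replicate 2, 2.20-fold apart, and the groups overlapped. PFOS livers averaged 97.5 and control livers 111, so the log2 fold change was -0.18 (SE 0.33, limma adjusted p = 0.869). The interval ran from 1.97-fold lower to 1.53-fold higher. In bulk liver RNA, fewer cells of a type and less miRNA per cell cannot be told apart, for these and all later values.

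**Figure D1:**
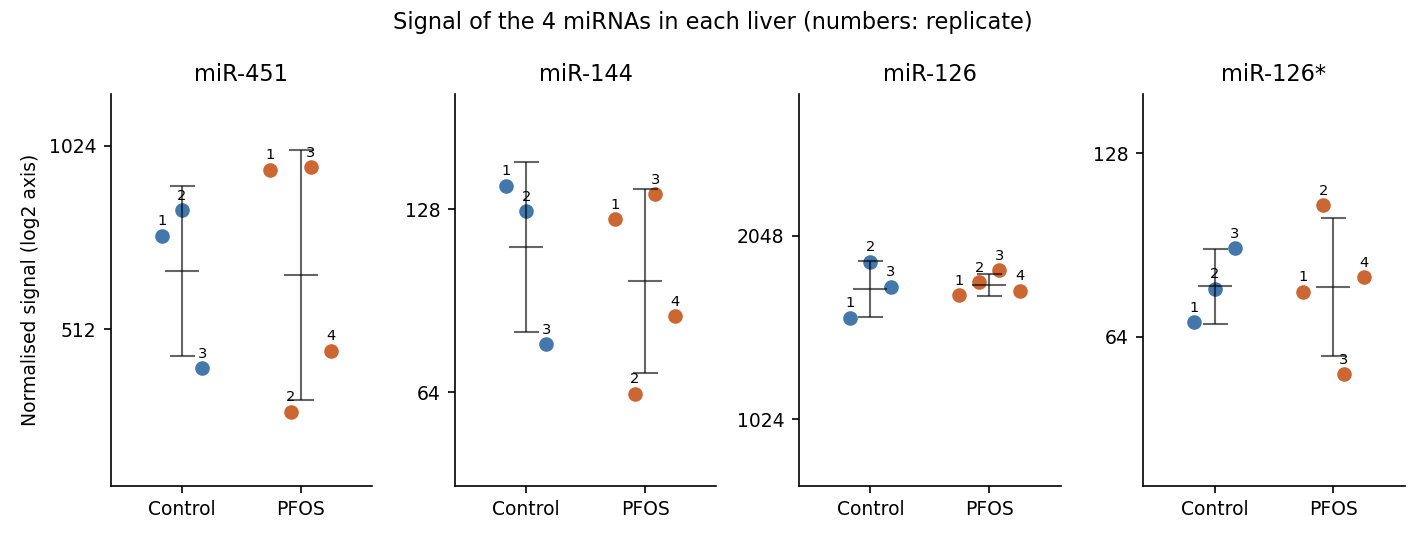
Normalised signal (log2 axis) of miR-451, miR-144, miR-126 and miR-126* in the 3 control and 4 PFOS livers; each numbered point is 1 rat, the wide tick is the group's geometric mean and the bar is 1 SD of the log2 values either side. The points of both groups overlap in every panel, and the spread is wide for miR-451 (2.52-fold over the 7 livers) and narrow for miR-126 (1.24-fold).

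The same 3 livers were low in both erythroid miRNAs. Control replicate 3, PFOS replicate 2 and PFOS replicate 4 had 375 to 472 of miR-451 and 63.7 to 85.3 of miR-144, and the other 4 livers began at 729 and 123. The step between these sides was 1.55-fold for miR-451 and 1.44-fold for miR-144, and no other step between neighbouring values exceeded 1.18-fold and 1.20-fold. Each side held livers of both diets. Within the 3 low livers the order was the same for both miRNAs, with PFOS replicate 2 lowest. Within the 4 high livers it was not: control replicate 1 was lowest in miR-451 and highest in miR-144. Among 10 other ways of normalising, summarising or sourcing the signal, the same 3 livers were the lowest for miR-451 in 8 and for miR-144 in 7.

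Pearson's r between log2 miR-451 and log2 miR-144 over the 7 livers was 0.95 (Spearman's rho 0.75). It is given as a description with no p, because the values fall on both sides of a step and neither side holds 6 livers, which leaves the relation within a side without a test. The 7 points share 1 slide and 1 normalisation. Without the livers farthest from the miR-451 median, control replicate 3 and PFOS replicate 2, r was 0.85 over 5 livers. Leaving out any single liver gave r from 0.92 to 0.98. It became -0.34 when the loess put equal weight on all miRNAs, undetected ones included, and was 0.85 to 0.95 under the other 9 settings.

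The ratio of the 2 signals on each array varied less than either signal. The miR-451 signal was 5.21, 6.33 and 5.75 times the miR-144 signal in control livers, and 7.59, 5.89, 6.98 and 5.53 times in PFOS livers. These ratios compare arrays and not the abundance of the 2 miRNAs, since different probes are not on a common scale. They spanned 1.46-fold, with the highest pair of values in PFOS livers and overlap between the groups. On the log2 scale the ratio averaged 2.69 ± 0.21 in PFOS and 2.52 ± 0.14 in control livers (SD, n = 4 and 3), a difference of 0.17 (exact two-sided permutation p = 0.314, adjusted over the 2 partner ratios 0.629).

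The endothelial miR-126 was the steadiest of the 4. Its normalised signal was 1504, 1859 and 1689 in control livers and 1638, 1719, 1798 and 1664 in PFOS livers. All PFOS values fell inside the control range, and the 7 livers spanned 1.24-fold. PFOS livers averaged 1704 and control livers 1678, and the log2 fold change was 0.02 (SE 0.09, limma adjusted p = 0.9997). The 95% interval ran from 1.15-fold lower to 1.18-fold higher in PFOS livers, the narrowest of the 4. Its direction depends on the scaling: it was -0.36 with spike-in scaling, -0.32 with equal loess weights and -0.26 in the deposited table, with limma adjusted p of 0.164 or more throughout.

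miR-126*, the other arm of the same hairpin, varied more. It gave 67.5, 76.7 and 89.5 in control livers and 75.8, 105, 55.5 and 80.1 in PFOS livers. The highest and lowest livers were both on PFOS, replicates 2 and 3, 1.90-fold apart. PFOS livers averaged 77.2 and control livers 77.4, and the log2 fold change was -0.00 (SE 0.22, limma adjusted p = 0.9997). The interval ran from 1.45-fold lower to 1.44-fold higher. Its sign also moved with the scaling, from -0.42 with spike-in scaling to 0.69 with equal loess weights.

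The arms of the miR-126 hairpin did not show a shared order over the livers. Pearson's r between log2 miR-126 and log2 miR-126* was -0.00 (exact permutation p = 0.996 over 7 arrays, adjusted over the 6 pairs 0.996), and Spearman's rho was 0.14 (exact permutation p = 0.783, adjusted 0.840). Without control replicates 1 and 2, the livers farthest from the miR-126 median, r was -0.48 (exact permutation p = 0.408, n = 5). The value rests on the normalisation: with scaling alone, over the detected miRNAs, over all miRNAs or by the spike-in, r was 0.38, 0.76 and 0.80. Many other miRNAs had a higher r with miR-126 in these settings, where miR-126* ranked 39, 86 and 76 of 174.

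The miR-126 signal was 22.3, 24.2 and 18.9 times the miR-126* signal in control livers and 21.6, 16.3, 32.4 and 20.8 times in PFOS livers. The PFOS livers held both the lowest and the highest ratio, replicates 2 and 3, and the 7 ratios spanned 1.98-fold. The mean log2 ratio was 4.46 ± 0.41 in PFOS and 4.44 ± 0.18 in control livers (SD), a difference of 0.03 (exact two-sided permutation p = 1). It changed sign to -1.01 with equal loess weights and to -0.24 with either uncorrected or normexp-corrected median signal and in the deposited table.

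Across the 2 pairs, miR-126* ran opposite to the erythroid miRNAs, with r of -0.83 against miR-451 and -0.87 against miR-144 over 7 arrays, given with no p for the reason above. PFOS replicate 2 was lowest in both erythroid miRNAs and highest in miR-126*, and PFOS replicate 3 was lowest in miR-126*. PFOS replicates 3 and 1 were nearly equal at the top of miR-451 (944 and 936), and their order turned under most other settings: PFOS replicate 3 was highest in 1 of 10. Over the alternatives run, with each array left out in turn among them, the r with miR-451 ran from -0.91 to -0.41 and that with miR-144 from -0.95 to -0.19. For miR-126, r was 0.09 with miR-451 and -0.07 with miR-144, with signs that changed between settings.

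**Figure D2:**
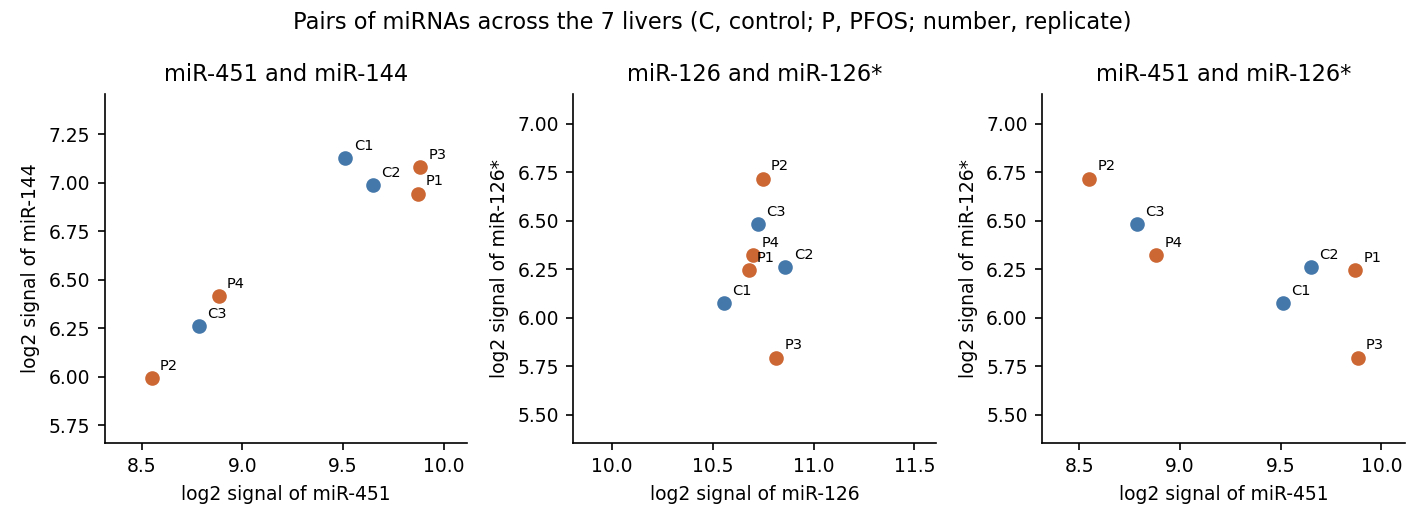
Log2 normalised signal of miR-451 against miR-144, miR-126 against miR-126* and miR-451 against miR-126*, 1 point per liver (C control, P PFOS, with the replicate number). miR-451 and miR-144 rise together across a step between C3, P2, P4 and the other livers, miR-126 and miR-126* show no common order, and miR-126* is highest where miR-451 is lowest (P2).

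The probes of each miRNA were read separately as a check of the measurement. miR-451, miR-144 and miR-126 had 2 probes of 10 spots each, and miR-126* had 1 probe of 20 spots. The probes of a miRNA followed each other over the 7 arrays, with r of 0.98 for miR-451, 0.94 for miR-144 and 0.99 for miR-126, as repeat readings of the same RNA. Each miR-451 probe spanned about the same range over the livers after scaling (2.65-fold and 2.64-fold). The median coefficient of variation between spots of an array, which leaves out the variation of extraction, labelling and hybridisation, was 7.52% and 4.72%. The PFOS difference (log2, scaling alone) was 0.04 and 0.03 by the miR-451 probes, -0.05 and -0.13 by the miR-144 probes and 0.13 by both miR-126 probes.

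Precision was lowest for the dim probes. The dimmer miR-144 probe had a median coefficient of variation of 23.2%, and on control replicate 3 none of its spots was well above background. That array's miR-144 value still sums both probes and rests mostly on the brighter one (9 of 19 kept spots well above background). Unscaled, the brighter probe gave 52.3 of 61.5 there and the dimmer one 9.18. miR-126* varied by 9.82% between spots in the median array and by 28.6% on PFOS replicate 3, where it was lowest. Its unscaled spots there ran from 32.7 to 124.5, with a median of 92.0 and a mean of 87.4. After scaling, the median spot was 56.7 on that array, still the lowest, and 70.7 to 104.1 on the others.

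Against the other tested miRNAs, the erythroid pair was among the more variable and miR-126 among the steadier. The residual SD within groups was 0.61 for miR-451 and 0.49 for miR-144 on the log2 scale, against a median of 0.19 over the 175 tested miRNAs, and 16% and 18.3% of tested miRNAs had a larger SD. For miR-126* it was 0.32, with 29.1% larger. For miR-126 it was 0.11, with 76% larger.

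No tested miRNA passed an adjusted p of 0.05 in limma (0% of 175, smallest adjusted p 0.131). Before adjustment, 34 miRNAs (19.4%) had p under 0.05, and in 19.4% the groups did not overlap. None of the 4 miRNAs did either: their p-values ranked 168 (miR-451), 120 (miR-144), 139 (miR-126) and 172 (miR-126*) from the smallest. The 4 log2 fold changes stood beside a median of -0.02 over all tested miRNAs. Within the slide's rows, which held 2 PFOS and 1 control array (row 1) and 2 of each (row 2), the log2 differences were -0.30 and 0.17 for miR-451, -0.66 and 0.12 for miR-144, 0.16 and -0.03 for miR-126, and 0.40 and -0.31 for miR-126*. All 4 changed sign between the rows.

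The miRNAs whose pattern over the 7 livers was most like that of each of the 4 were named by Pearson's r of log2 normalised signal among 174 others, as a description. For miR-451 they were miR-345-3p (r 0.95), its partner miR-144 (0.95) and miR-878 (0.95). For miR-144 the nearest was miR-451, followed by miR-202* (0.91) and miR-210 (0.89), a miRNA known to be induced in low oxygen. miR-345-3p was also lowest in control replicate 3, PFOS replicate 2 and PFOS replicate 4, with 129, 114 and 133 in that order and 171 to 309 in the other livers. miR-878 gave 44.3, 42.1 and 62.9 in the same livers and 72.7 to 119.7 in the others. Over 10 other settings, miR-144 stayed among the 3 nearest to miR-451 in 7, and miR-451 among the 3 nearest to miR-144 in 8. With equal loess weights, where their r was -0.34, neither was among the 3 nearest to the other. Of the other neighbours of miR-451, miR-345-3p stayed among the 3 nearest in 4 settings and miR-878 in 6. Of those of miR-144, miR-202* stayed in 8 and miR-210 in 3. A high r was not particular to the partner: as reported, miR-16 ranked 13 of 174 for miR-451 and still had r of 0.78.

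The pattern most opposite to both erythroid miRNAs was that of miR-23a (r of -0.95 with miR-451 and -0.90 with miR-144). miR-23a belongs to a cluster abundant in endothelium. The other tested miRNAs of the endothelium list below were less opposite, with r from -0.66 (miR-322) to 0.04 (miR-27b) with miR-451. The miR-23a values depend on the normalisation. Over 10 other settings its r with miR-451 ran from -0.97 to 0.17 (-0.26 with spike-in scaling, 0.17 with equal loess weights). Its r with miR-144 ran from -0.98 to 0.0026. Its normalised signal was 897, 920 and 823 in the 3 livers low in miR-451 (control 3, PFOS 2 and PFOS 4) and 729 to 792 in the others, a narrow range beside the 2.52-fold range of miR-451. miR-143, known from smooth muscle and other mesenchymal cells, had r of -0.90 with miR-451, and from -0.93 to -0.25 over the same settings. It was the most opposite of the stellate cell and smooth muscle list. As reported, r with miR-451 was -0.76 for miR-199a-3p, -0.66 for miR-199a-5p, -0.33 for miR-145 and -0.10 for miR-214. miR-145 was detected on 3 of the 7 arrays and miR-214 on 4. The miR-145 means, 14.1 in PFOS and 16.5 in control livers, were near the floor of 12.1 set on low values.

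For miR-126* the nearest patterns were those of miR-23a (r 0.84), miR-143 (0.76) and miR-98 (0.73), a let-7 relative, and the most opposite was that of miR-212 (-0.96). Over 10 other settings r with miR-23a ran from -0.34, with equal loess weights, to 0.93, and r with miR-212 from -0.95 to -0.032. miR-143 was highest in PFOS replicate 2 (785) and control replicate 3 (748), the same livers in which miR-126* was highest. For miR-126 the nearest were miR-338 (0.74), miR-181a (0.73) and miR-320 (0.72). The partner arm miR-126* ranked 79 of 174 for miR-126. These neighbours of miR-126 were not stable: over 10 other settings r with miR-338 ran from -0.082 to 0.96 and r with miR-181a from -0.42 to 0.97, the highest of both with spike-in scaling.

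**Figure D3:**
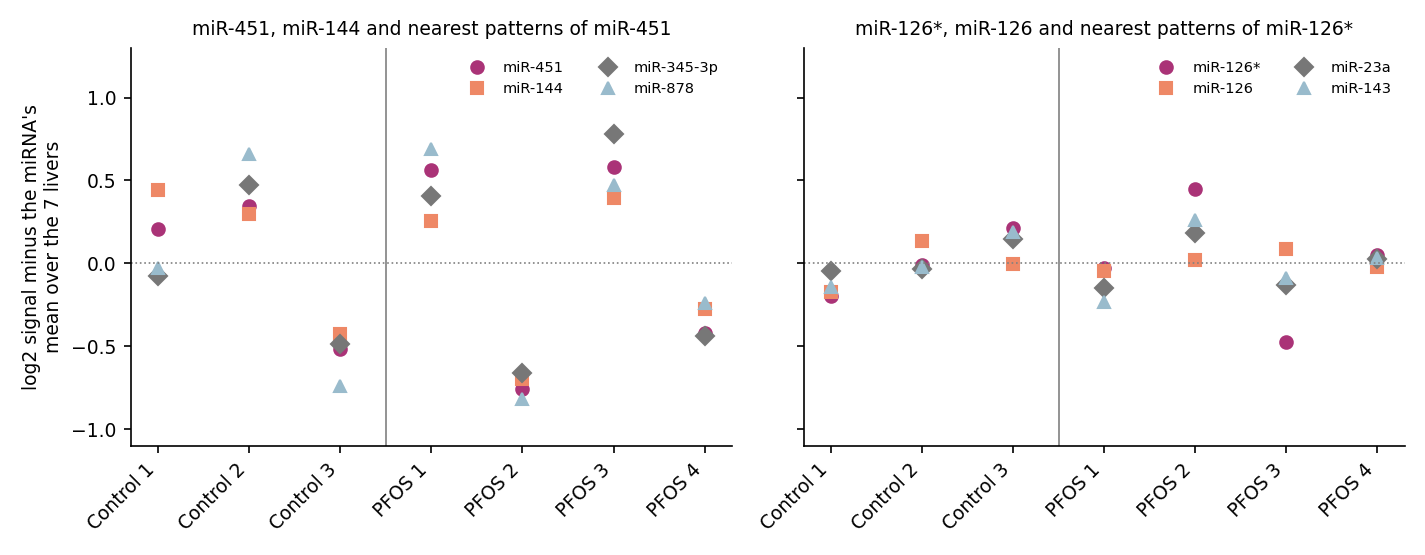
Log2 normalised signal minus each miRNA's mean over the 7 livers, for miR-451 and miR-126*, each with its partner and 2 of its nearest patterns. Control livers stand left of the vertical line and PFOS livers right of it. In control 3, PFOS 2 and PFOS 4 all 4 points of the left panel lie below 0, and in the right panel miR-126 stays near 0 where miR-126* is highest (PFOS 2) and lowest (PFOS 3).

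Other miRNAs associated with blood and liver cell types were set beside the 4. Of 8 miRNAs listed for red cells and platelets, 5 were on the array and 3 were tested, of which 1 was higher and 2 were lower in PFOS livers. Their log2 fold changes had a median of -0.05, and none was past the adjusted threshold. miR-16, abundant in red cells and in most other cells, was 1550 in PFOS and 1608 in control livers (log2 fold change -0.05, SE 0.12, limma adjusted p = 0.940). Its r with miR-451 over the livers was 0.78, the upper end of what the settings gave, since 10 others gave 0.16 to 0.78. miR-92a, another miRNA abundant in red cells, had a log2 fold change of -0.17 (SE 0.09, adjusted p = 0.366). miR-20b-5p was 189 in PFOS and 158 in control livers without overlap of the groups (log2 fold change 0.26, SE 0.07, adjusted p = 0.131). It passed with normexp correction (0.17, adjusted p = 0.0265) and with the median signal (0.19, adjusted p = 0.0389), and its sign turned with spike-in scaling (-0.15) and with equal loess weights (-0.86). In both settings where it passed, more miRNAs were called over the whole array (22 of 175 with normexp correction), against 0 as reported. As reported, r with miR-451 was -0.09 for miR-92a and -0.11 for miR-20b-5p.

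Of the 11 miRNAs listed as associated with endothelium, 9 were on the array and 8 were tested. Of these, 7 had a negative and 1 a positive log2 fold change, beside 95 negative and 80 positive over all 175 tested. Their median was -0.07, against -0.02 over all tested miRNAs, and none passed the adjusted threshold. An unadjusted p under 0.05 was found for 3 of the 8, and in 2 of the 8 the groups did not overlap, beside 34 of 175 (19.4%) for each over all tested miRNAs. miR-23b was 1121 in PFOS and 1421 in control livers (log2 fold change -0.34, SE 0.07, limma adjusted p = 0.131). miR-27b, from the same cluster, had a log2 fold change of -0.34 (SE 0.10, adjusted p = 0.155), and miR-24 had -0.21 (SE 0.10, adjusted p = 0.351). miR-221, which restrains vessel growth through Kit and was detected on 6 of 7 arrays, had 0.67 (SE 0.21, adjusted p = 0.155) with overlapping groups. These miRNAs are also made by hepatocytes and other liver cells. As reported, r of the 8 with miR-126 over the livers ran from -0.36 to 0.43.

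White cell and Kupffer cell miRNAs gave 2 positive and 3 negative log2 fold changes among 5 tested, with a median of -0.02. miR-223, abundant in neutrophils, had -0.23 (SE 0.09, limma adjusted p = 0.230) with r of 0.06 against miR-451. miR-142-5p, made in all blood lineages, had 0.15 (SE 0.17), with r of 0.38 against miR-451, and miR-150, abundant in mature lymphocytes, had 0.09 (SE 0.24), with r of 0.59. Stellate cell and smooth muscle miRNAs gave 1 positive and 4 negative among 5, with a median of -0.04. Of these, miR-145 had the smallest p, with -0.23 (SE 0.09, limma adjusted p = 0.227) and no overlap of the groups. It was detected on 3 of 7 arrays. The 4 hepatocyte miRNAs gave 1 positive and 3 negative, with a median of -0.10, and miR-122 itself had 0.00 (SE 0.06). miR-122* had -0.25 (SE 0.08, limma adjusted p = 0.185), also without overlap. Over all tested miRNAs, the groups did not overlap in 34 of 175 (19.4%).

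The summed level of each list after scaling overlapped between the groups. It was 2215 to 2503 in PFOS and 2147 to 2560 in control livers for the red cell and platelet list, and 4082 to 4966 against 4734 to 4938 for the endothelium list. It was 1089 to 1453 against 1143 to 1307 for the white cell list and 58997 to 69105 against 66511 to 69691 for the hepatocyte list. Different probes are not on a common scale, so each sum mostly follows its brightest miRNAs, such as miR-122 in the hepatocyte list. The sums are therefore not a measure of the content of a cell type. The part of the lists in the values of the 4 miRNAs was not tested.

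**Figure D4:**
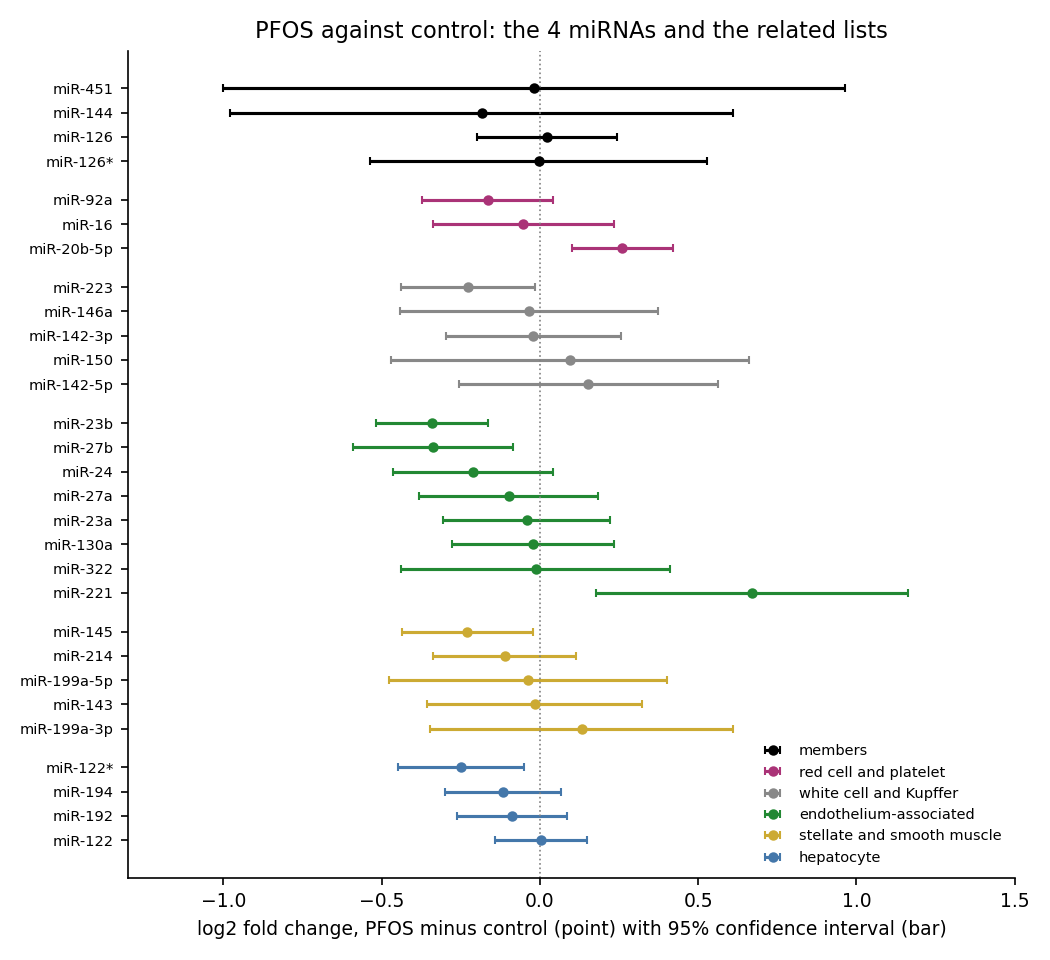
Log2 fold change of PFOS minus control livers (points) with 95% confidence intervals (bars) for the 4 miRNAs and the tested miRNAs of the related lists. The intervals of all 4 include 0, with miR-451 the widest (-1.001 to 0.96) and miR-126 the narrowest (-0.20 to 0.24).

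The authors' deposited table, on a log2 scale without background subtraction, held the same low livers. In it, miR-451 was 8.50, 8.77 and 8.08 in control livers and 8.80, 7.68, 8.80 and 7.89 in PFOS livers. miR-126 in the authors' deposited table was 9.58, 9.96 and 9.86 in control livers and 9.62, 9.57, 9.55 and 9.43 in PFOS livers, so there 3 of the 4 PFOS livers lay below the control range.

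**Figure D5:**
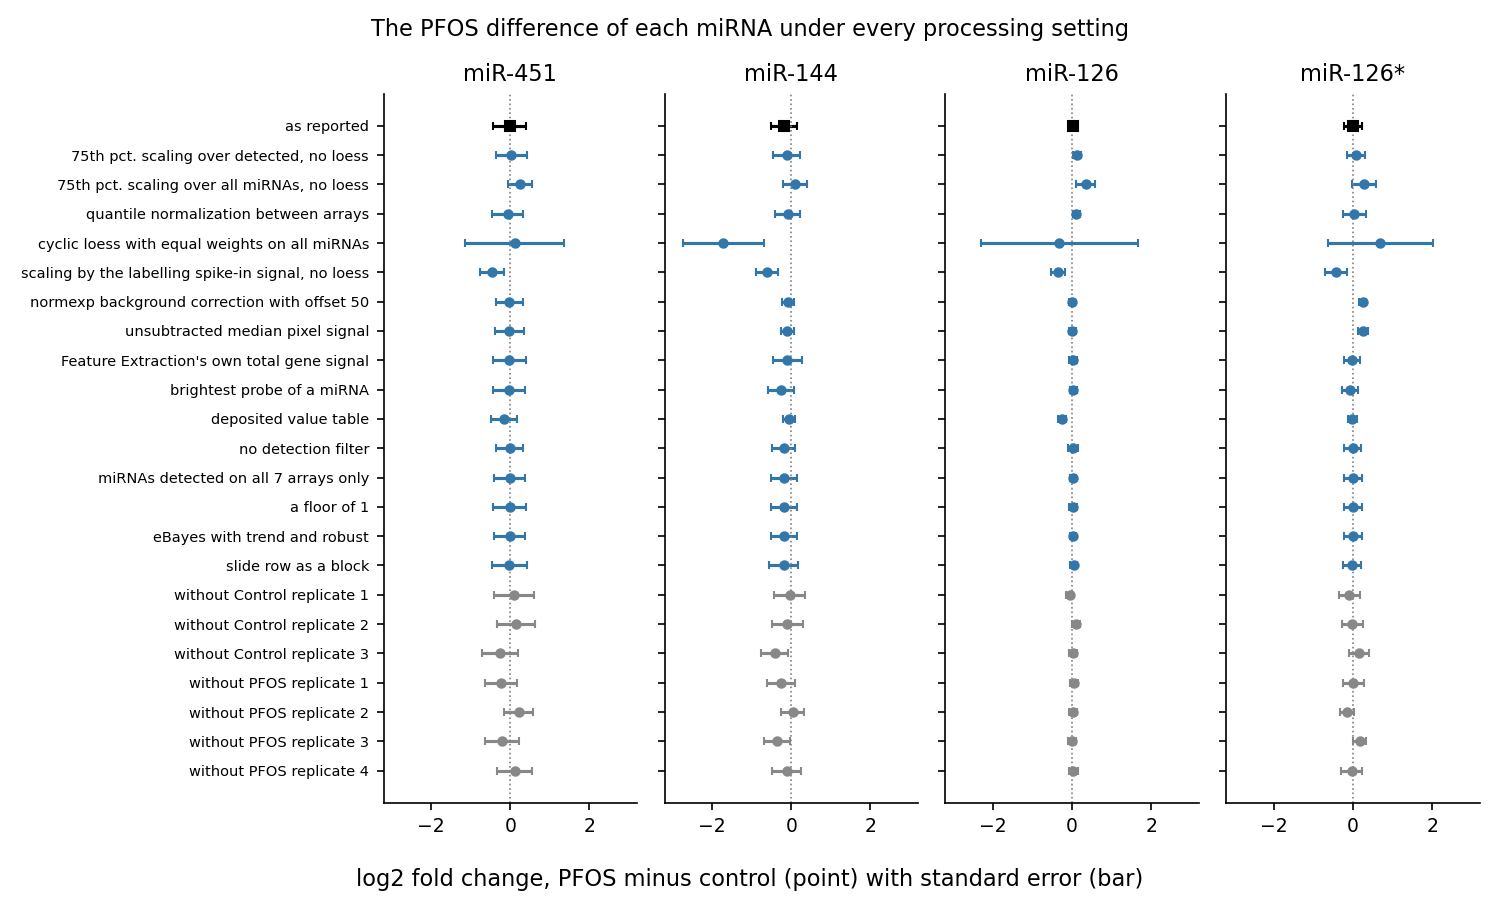
Log2 fold change of PFOS minus control (points) with its standard error (bars) for each of the 4 miRNAs under every processing setting, including each array left out in turn. Points lie on both sides of 0 for all 4 miRNAs; the value farthest from 0 is that of miR-144 with equal loess weights (-1.72).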

How the data were processed

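Total RNA of 7 rat livers was labelled with Cy3 and hybridised to 1-colour Agilent arrays, 1 rat per array, without pooling. The sample titles gave the groups. Replicate numbers only name the arrays, in accession order. Per the file headers, spot intensity was made by Feature Extraction 10.7.3.1, and the processed signal used here is background-subtracted and not normalised between arrays. The deposited table is on a log2 scale, normalised by the authors with cyclic lowess, per the labels' design text. The lowess settings and the authors' test are not given in these sources.

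Spots of a probe were averaged without outlier-flagged spots, and the probes of a miRNA were summed. A 75th percentile, taken over miRNAs detected on all 7 arrays, was made equal between arrays, and values were floored at the 1st percentile of detected values (12.1) and log2 transformed. Cyclic loess (limma 3.58.1, pairs, span 0.7, 3 iterations) followed, weighted on the same detected miRNAs. Tested were the 175 of 677 miRNAs detected on all 3 control or at least 3 PFOS arrays, where detected means that over 50% of kept spots of a probe were well above background. Groups were compared with lmFit and eBayes in R 4.3.3, with Benjamini-Hochberg adjustment over all tested miRNAs and a threshold of 0.05. Ratios and correlations were tested by exact permutation. The fit code was run on simulated normal values drawn independently for each miRNA, which checks the code and not the normalisation.

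The 4 miRNAs, the lists and the tests were chosen with earlier results of these data known. Named miRNAs were the 4, the 3 of highest r with each (and the most opposite one, added after values were seen, with miR-143 beside miR-451), and up to 4 per list by smallest p. Alternatives changed the normalisation, background, signal column, probe summary, detection filter, floor, moderation or threshold, blocked on slide row, or dropped 1 array at a time. Normexp (offset 50) ran on the median signal. Alternatives for leave-one-out correlations, correlations across the pairs and miR-16, miR-92a and miR-20b-5p were chosen after seeing the data. The number of arrays limits the precision.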

Additional observations from a re-analysis of the deposited data

How the results depend on the processing

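No call was made for any of the 4 miRNAs under any alternative run: limma adjusted p was 0.252 to 1 for miR-451, 0.126 to 0.997 for miR-144, 0.164 to 0.999 for miR-126 and 0.145 to 1 for miR-126*. The small differences changed sign often, and the causes were not tested. With 75th percentile scaling over detected miRNAs and no loess, miR-451 was 0.029, miR-126* 0.067, miR-16 0.055, r of miR-126 with miR-126* 0.38 and r of miR-451 with miR-126 -0.16. With the percentile over all miRNAs, miR-451 was 0.24, miR-144 0.10, miR-126* 0.28, miR-16 0.27, miR-92a 0.075 and these r 0.76 and -0.15. That scaling moved the median of all tested miRNAs to 0.25, and relative to it miR-451 was -0.01, miR-144 -0.16, miR-126 0.09 and miR-126* 0.03. With quantile normalisation, miR-126* was 0.035, miR-16 0.042 and these r 0.46 and -0.34. With equal loess weights (median of all tested miRNAs -0.26), miR-451 was 0.11, miR-126 -0.32, miR-126* 0.69, miR-16 0.046, miR-20b-5p -0.86, the log2 ratio of the miR-126 arms -1.01 and r of miR-451 with miR-144 -0.34. With spike-in scaling (median -0.45), miR-126 was -0.36, miR-20b-5p -0.15, r of the miR-126 arms 0.80, of miR-451 with miR-126 -0.090 and of miR-144 with miR-126 0.14. Relative to that median, miR-451 was -0.01, miR-144 -0.16, miR-126 0.09 and miR-126* 0.02. With normexp and with the median signal, miR-126* was 0.24 in both and the log2 arm ratio -0.24. With the deposited table, miR-126 was -0.26, the log2 ratio of miR-451 over miR-144 -0.10, the arm ratio -0.24, r of the arms 0.18 and r of miR-144 with miR-126 0.14.

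Leaving out each array in turn gave -0.27 to 0.22 for miR-451, -0.42 to 0.037 for miR-144, -0.059 to 0.095 for miR-126, -0.17 to 0.17 for miR-126* and -0.15 to 0.059 for miR-16. The log2 ratio of miR-451 over miR-144 ran from 0.04 to 0.24 and the arm ratio from -0.17 to 0.19. The r of miR-451 with miR-144 ran from 0.92 to 0.98, of the arms from -0.36 to 0.42, of miR-451 with miR-126 from -0.10 to 0.32 and of miR-144 with miR-126 from -0.32 to 0.42.

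The count of called miRNAs over the whole array, 0 as reported, was 3 with the percentile over all miRNAs, 8 with spike-in scaling, 22 with normexp, 20 with the median signal, 1 with the software's total gene signal, 9 with the deposited table, 1 without a detection filter and 4 with the slide row as a block. It was 0 with each array left out and at an adjusted p under 0.10. No paired analysis was possible because the labels give each rat its own number and no number is shared between the groups. The dimmer miR-144 probe, with under 100% of spots well above background on some arrays, and 3 control livers limit what can be detected.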

Other observations

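The values of miR-451, miR-144, miR-126 and miR-126* and both partner ratios were screened for a liver far from the others within the 4 PFOS livers (Dixon's ratio, 6 measures), and none was past the 95% limit. The largest ratio, 0.592, was that of PFOS replicate 3 in the log2 ratio of miR-126 over miR-126*. The 3 control livers were too few to screen.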
